A study of Mus musculus with 10 samples.

Results

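The mitochondrial ribosomal proteins were examined here as a gene family. Its members were all genes whose symbol begins with Mrpl or Mrps followed by a number in the array's platform annotation, each read from a probe set that names that gene alone, or from the one with the highest mean where a gene has several. The rule gave 74 genes of 18820 named on the array, 46 with a large subunit symbol (Mrpl) and 28 with a small subunit symbol (Mrps). Colonic organoids, cultured balls of epithelium grown from crypts, came from 3 male mice with an intestinal epithelium-specific PPARγ knockout (KO) and 3 male wild-type (WT) littermates, all on a C57BL/6J background. The knockout carries loxP sites around exons 1 and 2 of Pparg, which a Cre recombinase under the villin promoter removes in intestinal epithelium. Organoids were exposed for 24 h to 1 µM rosiglitazone, a synthetic agonist of the nuclear receptor PPARγ, or to 0.1% DMSO as vehicle. The 10 arrays comprise KO organoids with rosiglitazone (n = 3, mice 46, 45 and 44), KO organoids with vehicle (n = 2, mice 46 and 44), WT organoids with rosiglitazone (n = 3, mice 48, 42 and 47) and WT organoids with vehicle (n = 2, mice 42 and 47). All groups shared the same medium, with Wnt, Noggin, R-spondin, EGF and inhibitors of kinases.

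The mitochondrial ribosome translates the few proteins that the mitochondrial chromosome encodes, all of them core subunits of the respiratory chain and the ATP synthase. Its protein components are nuclear genes, translated in the cytosol and imported. The large subunit joins amino acids and holds the tunnel through which the new chain leaves, and the small subunit decodes the messenger. Many of the proteins descend from the bacterial ribosome, and others were added in mitochondria. The epithelium of the colon oxidises butyrate in mitochondria.

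The deposited values ran from 0.95 to 13.55 on the log2 scale, and the array medians over 23099 tested probe sets lay between 4.38 and 4.65. Markers of epithelium (8 of 8 measured) averaged 9.85 to 10.21 log2 units per array, and all markers of fibroblasts (5), smooth muscle (3), endothelium (3) and leukocytes (4) lay below the median of tested probe sets. The single Pparg probe set read 8.78, 7.37 and 8.41 in KO organoids with rosiglitazone, 8.58 and 8.47 in KO organoids with vehicle, 8.30, 7.59 and 7.93 in WT organoids with rosiglitazone and 8.34 and 8.41 in WT organoids with vehicle. The genotypes overlap there. Where its probes lie relative to the deleted exons is not known here. It therefore does not check the deletion, and KO stands for the label throughout. In bulk RNA, fewer cells of a type and less RNA per cell cannot be told apart.

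All 74 members had a mean above the median of tested probe sets, which was 4.51 log2 units. Member means ran from 4.66 to 10.03 with a median of 7.31, against a median of 7.24 for the 11549 probe sets in the upper part of the signal range. The highest means belonged to Mrpl34 (10.03), Mrps21 (9.88), Mrpl10 (8.95), Mrps15 (8.78) and Mrpl3 (8.77), and the lowest to Mrps12 (4.66), Mrpl44 (4.79), Mrpl22 (5.02), Mrps28 (5.15) and Mrps14 (5.40). Probe sets differ in how they bind, so these figures do not order the transcripts by abundance. The members varied little: the SD over the 10 arrays had a median of 0.17 in the family and 0.18 in the brighter probe sets as a whole. Mrps18b had the smallest SD, 0.08. Mrpl22 had the largest, 0.52, followed by Mrps26 (0.45), Mrpl23 (0.36), Mrpl47 (0.34) and Mrps35 (0.31).

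**Figure D1:**
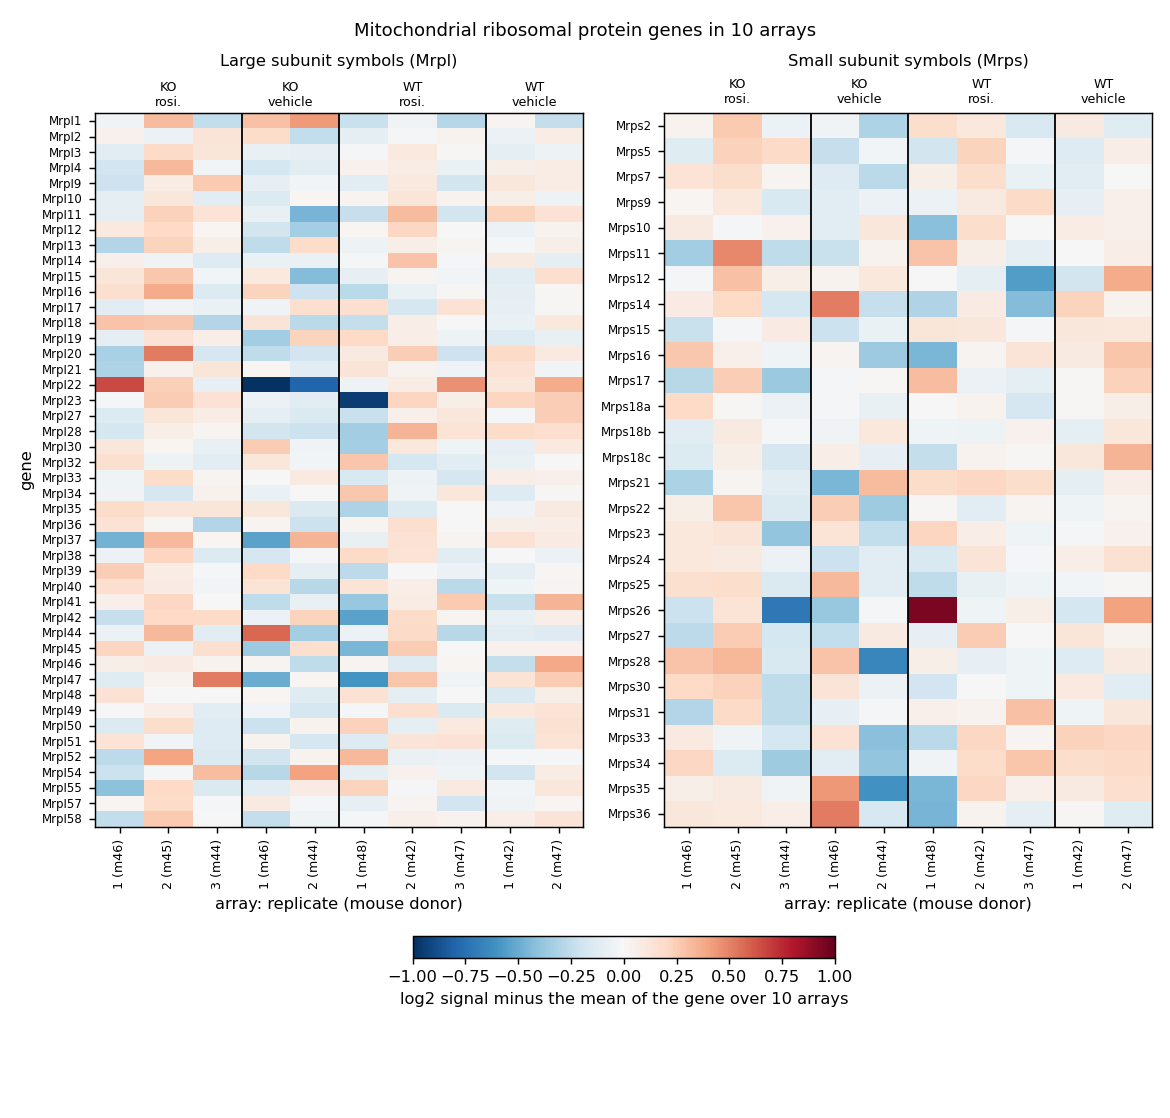
Heat map of log2 signal minus the mean of the gene over 10 arrays (colour scale from -1 to 1) for 46 Mrpl genes (left) and 28 Mrps genes (right), one column per array with the replicate and the mouse donor (m). Mrpl22 is the one row that is deep blue in both KO vehicle arrays; Mrpl23 is deep blue and Mrps26 deep red in WT rosiglitazone replicate 1 alone.

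Several genes were read by more than 1 probe set, and those did not always give the same picture. For 12 members the array held 13 further single-symbol probe sets, and in 7 of the 13 pairs the correlation over the 10 arrays was below 0.5. The pair that differed most in level was that of Mrpl42, with means of 7.19 and 2.78. The pairs also differed in response. For Mrpl47 the probe set used here gave a KO response of 0.38 log2 units and the other gave 0.03, with a correlation of -0.26 over the arrays, while the pair of Mrpl23 ran together (r = 1.00). In the WT response the pair of Mrpl47 gave -0.32 and -0.12, and in the difference of responses 0.70 and 0.15. Between genotypes the Mrpl47 pair gave -0.44 and -0.08 with vehicle, and 0.26 and 0.07 with rosiglitazone. Near-identical processed copies of such genes exist in the mouse genome (RefSeq lists 6 pseudogenes with symbols of this pattern), so values of members with several probe sets are uncertain. Mrpl24, Mrpl43, Mrpl53 and Mrps6 were measured only by probe sets that also name another gene and were not used.

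The array that stood apart for the family was KO rosiglitazone replicate 2, from mouse 45, which has no vehicle partner. The median member lay 0.14 log2 units above its own 10-array mean there. In the other 2 KO rosiglitazone arrays the median deviation was -0.00 (mouse 46) and -0.05 (mouse 44), and in the KO vehicle arrays it was -0.06 (mouse 46) and -0.08 (mouse 44). In WT organoids it was -0.05 (mouse 48), 0.07 (mouse 42) and -0.01 (mouse 47) with rosiglitazone, and -0.01 (mouse 42) and 0.07 (mouse 47) with vehicle. In mouse 45, 62 of 74 members were above their own mean and 19 had their highest value of the 10 arrays (25.7%, against 18.2% of the brighter probe sets). The goblet cell markers averaged 7.83 in that array and 3.68 to 6.32 in the other 9, the deep crypt secretory and Paneth cell markers 7.32 against 4.24 to 5.36, and the proliferation markers 8.82 against 8.42 to 8.75. The part of these cell states in the family's level was not tested.

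**Figure D2:**
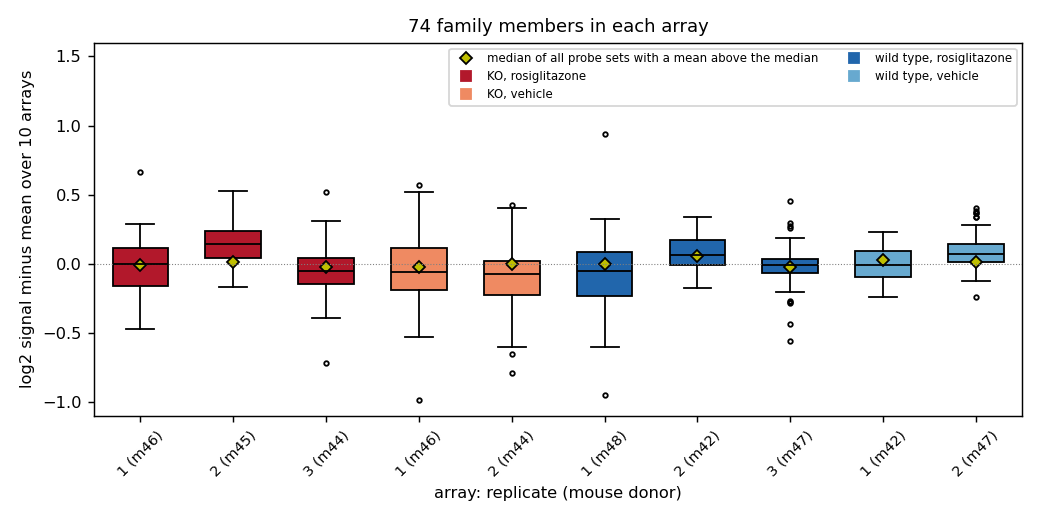
Box plot of the 74 members in each array as log2 signal minus the gene's mean over 10 arrays (box, quartiles; line, median; whiskers, 1.5 times the interquartile range; circles, members beyond), with a diamond for the median of 11549 brighter probe sets. The box of KO rosiglitazone replicate 2 (mouse 45) sits highest, with a median of 0.14, while its diamond stays near 0.

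Mrpl22 encodes a large subunit protein of bacterial descent that lines the tunnel through which the new protein leaves. It was picked for its response in KO organoids, so its values are a description. It read 5.68, 5.26 and 4.93 log2 units in KO organoids with rosiglitazone, 4.03 and 4.23 in KO organoids with vehicle, 4.97, 5.09 and 5.47 in WT organoids with rosiglitazone, and 5.13 and 5.39 in WT organoids with vehicle. Both KO vehicle arrays lie below all 8 others, and the other 3 groups overlap. Both KO vehicle values also lie below the median of tested probe sets, 4.51 log2 units, and below the median of their own array. The 8 other values lie above 4.51. The low group of this gene is thus read in the dim part of the signal range. The group means were 5.29 ± 0.37 (KO, rosiglitazone, SD, n = 3), 4.13 ± 0.14 (KO, vehicle, SD, n = 2), 5.18 ± 0.26 (WT, rosiglitazone, SD, n = 3) and 5.26 ± 0.18 (WT, vehicle, SD, n = 2).

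The fitted difference of Mrpl22 between rosiglitazone and vehicle was 1.16 (SE 0.22) in KO organoids and -0.08 (SE 0.22) in WT organoids, on the log2 scale, and the KO response exceeded the WT response by 1.24 (SE 0.32). Between genotypes it was -1.13 (SE 0.24) with vehicle and 0.11 (SE 0.20) with rosiglitazone. The KO response and the genotype difference with vehicle share the same 2 KO vehicle arrays, so they are not separate observations. By size, Mrpl22 ranked 21st of 23099 in the KO response and 126th in the genotype difference with vehicle. No probe set passed limma with Benjamini-Hochberg adjustment over all 23099 in either comparison. Within the KO mice, rosiglitazone minus vehicle was 1.65 in mouse 46, the highest value among the 11549 brighter probe sets there, and 0.70 in mouse 44. Within the WT mice it was -0.04 in mouse 42 and 0.08 in mouse 47.

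Markers of colonocytes, the absorptive cells of the colon, were set beside Mrpl22 (6 of 6 measured, 2 of them below the median of tested probe sets). Some of their median differences lay near those of Mrpl22, but single arrays ran in another order. Of the KO rosiglitazone arrays, mouse 45 had the highest marker mean and mouse 46 the highest Mrpl22 value. The marker mean per array was 5.20, 6.24 and 5.17 log2 units in KO organoids with rosiglitazone, 4.72 and 4.73 in KO organoids with vehicle, 4.95, 5.54 and 6.11 in WT organoids with rosiglitazone, and 5.81 and 6.32 in WT organoids with vehicle. Both KO vehicle arrays are the lowest of the 10 here too. The median log2 difference of the markers was 1.09 in the KO response (5 of 6 above 0), 1.38 in the difference of responses, -1.14 in KO against WT with vehicle (6 of 6 below 0) and -0.05 with rosiglitazone, beside 1.16, 1.24, -1.13 and 0.11 for Mrpl22. In the WT response it was -0.40, beside -0.08 for Mrpl22. Goblet cell markers (5 of 6 measured) had medians of 1.498 in the KO response, 2.18 in the difference of responses and -0.94 between genotypes with vehicle. With rosiglitazone their median genotype difference was 1.24, and in the WT response their median was -0.51. Their array mean with rosiglitazone and vehicle was 3.68 and 3.83 in mouse 46, and 6.32 and 5.58 in mouse 44. No marker of these 2 lists was called by limma, and the part of these cells in the values of Mrpl22 was not tested.

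The other 73 members ran from -0.35 to 0.38 in the KO response with a median of 0.07, and from -0.45 to 0.46 in the genotype difference with vehicle with a median of -0.08. In the WT response Mrpl22 ranked 36th of 74 by size, and in the genotype difference with rosiglitazone 35th. Its profile over the 10 arrays correlated with the mean of the other members at r = 0.42, and the median r with single members was 0.20. The members most like it were Mrps24 (r = 0.78), Mrpl12 (r = 0.74) and Mrps34 (r = 0.69). Among 9452 genes with a mean above the median the most like were Fam114a1 (r = 0.93), Exosc7 (0.90), Adpgk (0.90), Mvp (0.86) and Larp4 (0.85). These are descriptions over 10 arrays from 6 mice, and the arrays share donors.

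**Figure D3:**
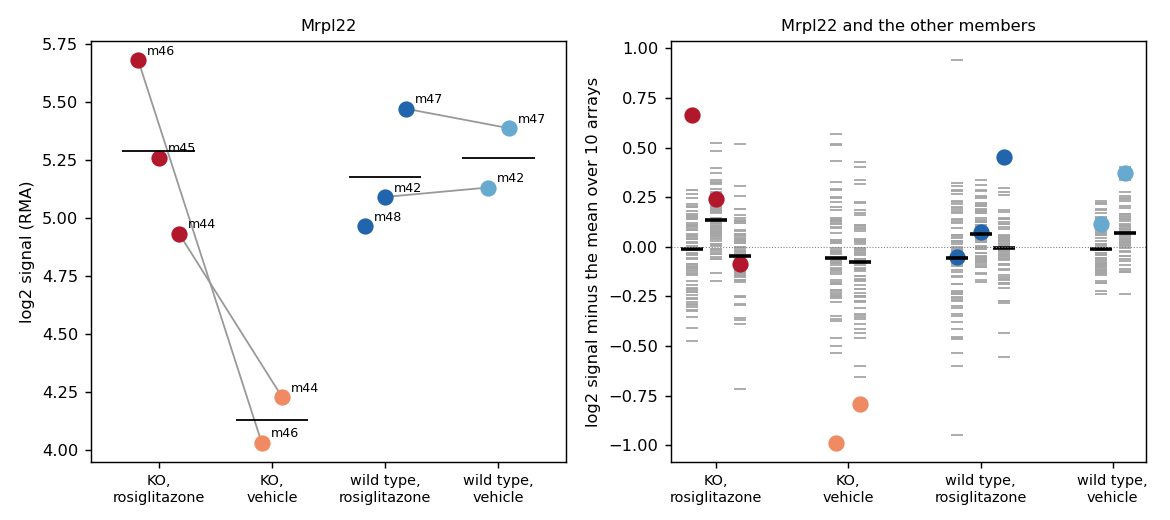
Left, Mrpl22 log2 signal in each array by group (points, arrays labelled with the mouse; horizontal lines, group means; grey lines join the arrays of a mouse). Right, the same arrays as log2 signal minus the mean over 10 arrays, with Mrpl22 as coloured points, the other 73 members as grey ticks and their median as a black bar. Both KO vehicle points of Mrpl22 (4.03 and 4.23) lie below every other point and below all grey ticks of their arrays.

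Gemin5, Cnot8 and Gm12250, which lie near Mrpl22 on chromosome 11 in the RefSeq table (GRCm38.p6), gave KO responses from -0.24 to 0.25. Gemin5 had a KO response of 0.25 (SE 0.19) and a genotype difference with vehicle of -0.03 (SE 0.21), Cnot8 had -0.20 (SE 0.15) and 0.06 (SE 0.17), and Gm12250 had -0.24 (SE 0.20) and 0.14 (SE 0.22). The 120 bases ahead of the annotated Mrpl22 start in the RefSeq promoter table are shown because 2 motifs found often in genes for mitochondrial proteins lie close together in them. Capitals mark, from left to right, an ETS motif (CCGGAAG) that begins 53 bases before the start and a core of the motif of NRF1, nuclear respiratory factor 1 (GCGCATGC), that begins 33 bases before it. These are not the only matches of Mrpl22 in the wider window searched below, from 250 bases before to 50 after the start. Copies of AGGTCA, the half-site of nuclear receptors, lie ahead of the printed stretch, and a YY1 motif (ATGGCGG) lies after the start. Whether any of these sites is bound was not tested. The stretch is GRCm38.p6 chr11:58171544-58171663, plus strand.
Mrpl22: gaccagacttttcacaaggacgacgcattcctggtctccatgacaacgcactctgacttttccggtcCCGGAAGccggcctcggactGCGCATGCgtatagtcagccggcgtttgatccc

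Rosiglitazone against vehicle in KO organoids asks what the agonist does where its receptor is labelled as deleted. No member passed the test (0 of 74), and no probe set on the array did (0.0% of 23099 called by limma at an adjusted p under 0.05). At an unadjusted p under 0.05 there were 3 members, Mrpl22, Mrpl12 and Mrps7, which is 4.05% of the family against 3.06% of all probe sets. Without Mrpl22, which was picked for this response, there were 2 of 73. The fitted differences were above 0 for 56 of 74 members (75.7%, against 46.4% of all probe sets and 52.0% of the brighter ones), with a median of 0.08 against -0.01 and 0.01. Without the array of mouse 45 the count above 0 was 42 of 74 (56.8%, against 48.7% of all probe sets and 49.9% of the brighter ones) and the median 0.03. Within mice the count was 39 of 74 in mouse 46 (52.7%, against 53.8% of the brighter probe sets) and 40 of 74 in mouse 44 (54.1% against 45.9%). Markers of 3 epithelial cell types had the largest medians of the marker lists in the same comparison. These were 1.09 for colonocytes (5 of 6 above 0), 1.498 for goblet cells (5 of 5) and 1.35 for deep crypt secretory and Paneth cells (4 of 4). The general epithelium list had a median of 0.04 (5 of 8). The array means of the colonocyte list did not overlap between treatments, and those of the other 2 lists did. With rosiglitazone and vehicle the goblet mean was 3.68 and 3.83 in mouse 46 and 6.32 and 5.58 in mouse 44. The deep crypt mean was 4.29 and 4.26 in mouse 46 and 5.36 and 4.65 in mouse 44. In mouse 45, without a vehicle partner, the goblet mean was 7.83 and the deep crypt mean 7.32. No marker of the 3 lists was called by limma, and their part in the family's difference was not tested.

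By subunit, the KO response had a median of 0.09 for Mrpl genes (37 of 46 above 0) and 0.05 for Mrps genes (19 of 28 above 0), and the difference between the subunits was not tested. After Mrpl22, the largest positive differences were those of Mrpl47, Mrpl12, Mrpl11 and Mrps28. Mrpl12, a protein of the flexible stalk that recruits translation factors, read 8.47, 8.56 and 8.39 in KO organoids with rosiglitazone, against 8.19 and 8.03 with vehicle. The groups do not overlap, and the fitted difference was 0.37 (SE 0.13, adjusted p = 1.00). It was 0.28 and 0.36 within mice 46 and 44, and also 0.27 in WT mouse 42, against -0.04 in WT mouse 47. Mrps7, a small subunit protein that binds ribosomal RNA in the head, read 7.69, 7.73 and 7.58 with rosiglitazone, against 7.42 and 7.28 with vehicle. Again the groups do not overlap.

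Mrpl11 and Mrpl47 rest more on single arrays. Mrpl11, at the base of the stalk, read 6.81, 7.12 and 7.03 in KO organoids with rosiglitazone, against 6.82 and 6.43 with vehicle (0.36, SE 0.19, adjusted p = 1.00), and without KO vehicle replicate 2 its difference was 0.17. Mrpl47, a protein at the exit of the tunnel, read 5.72, 5.87 and 6.35 with rosiglitazone, against 5.34 and 5.86 with vehicle (0.38, SE 0.27), and without KO vehicle replicate 1 its difference was 0.12. Mrps28 read 5.43, 5.48 and 5.00 with rosiglitazone, against 5.43 and 4.49 with vehicle (0.34, SE 0.25), and without KO vehicle replicate 2 the difference was -0.13. In these 3 genes the groups overlap.

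On the other side stood Mrpl1, whose protein forms the side stalk where the spent tRNA leaves. It read 6.77, 7.12 and 6.56 in KO organoids with rosiglitazone, against 7.10 and 7.23 with vehicle, which overlap, with a difference of -0.35 (SE 0.18, adjusted p = 1.00). Its difference was below 0 in all 4 mice that had both treatments (-0.33 and -0.67 in KO mice 46 and 44, -0.06 and -0.04 in WT mice 42 and 47). Mrpl17 (-0.13), Mrps17 (-0.13), Mrpl55 (-0.10) and Mrps14 (-0.10) were the next lowest, each smaller than its SE. In all, the treated and vehicle arrays did not overlap for 9 members in the higher direction (12.2%, against 5.81% of all probe sets and 6.89% of the brighter ones), among them Mrpl22, Mrpl12, Mrps7, Mrpl41 and Mrpl23, and for Mrpl17 alone in the lower direction (1.35%, against 7.93% of all probe sets and 5.58% of the brighter ones). Without the array of mouse 45 the counts were 9 higher (12.2%, against 11.9% and 11.1%) and 7 lower (9.46%, against 13.0% and 11.7%).

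**Figure D4:**
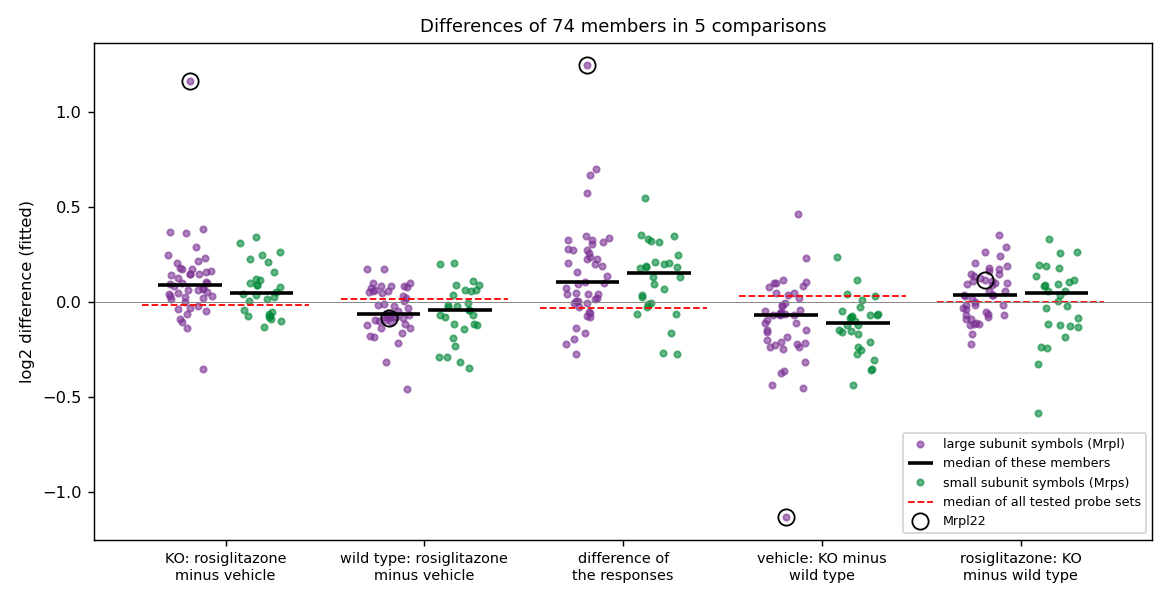
Fitted log2 differences of the 74 members in 5 comparisons (points, genes, spread sideways for legibility; black bars, medians of the Mrpl and Mrps genes; dashed red lines, the median of all 23099 tested probe sets; open circles, Mrpl22). Mrpl22 stands apart from the family at 1.16, 1.24 and -1.13 in the comparisons that use the KO vehicle arrays and lies within it in the others.

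Rosiglitazone against vehicle in WT organoids gives the response with the receptor present. No member passed the test (0 of 74, and 0.0% of all probe sets), and none reached an unadjusted p under 0.05 (0.991% of all probe sets did). Of the members, 26 of 74 had a difference above 0 (35.1%, against 54.3% of all probe sets and 45.6% of the brighter ones) with a median of -0.05, and with each array centred on its median the count was 36 (48.6%, against 66.6% and 60.7%) and the median -0.01, against 0.06 over all probe sets. The Mrpl genes had a median of -0.06 (17 of 46 above 0) and the Mrps genes -0.04 (9 of 28). The 2 WT mice with both treatments went opposite ways: 53 of 74 members were higher with rosiglitazone in mouse 42 (71.6%, against 56.9% of the brighter probe sets, median 0.06) and 14 of 74 in mouse 47 (18.9% against 39.9%, median -0.07).

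The lowest WT difference was that of Mrpl23, another protein at the exit of the tunnel, at -0.45 (SE 0.28, adjusted p = 1.00). It read 7.42, 8.59 and 8.43 in WT organoids with rosiglitazone, against 8.59 and 8.61 with vehicle, so 1 array, replicate 1 from mouse 48, set the value, and without it the difference was -0.09. Mrps14 (-0.35), Mrpl47 (-0.32), Mrps12 (-0.31) and Mrps18c (-0.29) followed. Of these, Mrps18c read 7.36, 7.63 and 7.61 with rosiglitazone, against 7.71 and 7.93 with vehicle, without overlap, and the others overlapped. Mrps12, a protein of the decoding centre, read 4.66, 4.56 and 4.10 with rosiglitazone, against 4.48 and 5.03 with vehicle, and without WT vehicle replicate 2 its difference was -0.04.

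On the higher side in WT organoids were Mrps26 (0.20, SE 0.33), Mrps21 (0.20, SE 0.21), Mrpl34 (0.17, SE 0.14), Mrpl19 (0.17, SE 0.17) and Mrps7 (0.11, SE 0.13). Mrps21 read 10.07, 10.09 and 10.06 with rosiglitazone, against 9.79 and 9.95 with vehicle. Groups did not overlap for 3 members in the higher direction, Mrps21, Mrpl19 and Mrpl3 (4.05%, against 8.65% of all probe sets and 6.01% of the brighter ones), and for 5 in the lower, Mrpl23, Mrps18c, Mrpl33, Mrps25 and Mrpl58 (6.76%, against 6.78% and 7.97%). Mrpl58 encodes a peptidyl-tRNA hydrolase built into the large subunit, which frees chains from stalled ribosomes.

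The test of whether the response differs between genotypes called no member (0 of 74) and no probe set (0.0%). Mrpl22 alone was at an unadjusted p under 0.05 (1 of 74, against 2.32% of all probe sets). Without Mrpl22, which was picked for its KO response, there were 0 of 73. The difference, KO response minus WT response, was above 0 for 54 of 74 members (72.97%, against 44.6% of all probe sets and 53.7% of the brighter ones), with a median of 0.13 against -0.03 and 0.02, and below 0 for 20 of 74 (55.4% of all probe sets). With each array centred it was above 0 for 48 (64.9%, against 37.6% and 45.6%), and with only the 4 mice that had both treatments for 42 (56.8%, against 49.1% and 51.1%), with a median of 0.04. The median was 0.10 for Mrpl genes and 0.16 for Mrps genes.

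After Mrpl22 the largest were Mrpl47 (0.70, SE 0.38), Mrpl23 (0.67, SE 0.40), Mrpl11 (0.57, SE 0.27) and Mrps16 (0.55, SE 0.28), each with an adjusted p of 1.00. The other probe set of Mrpl47 gave 0.15. Mrps16, a small subunit protein whose loss causes a mitochondrial disease in humans, read 7.06, 6.85 and 6.75 in KO organoids with rosiglitazone and 6.82 and 6.43 with vehicle, and 6.34, 6.82 and 6.92 in WT organoids with rosiglitazone and 6.89 and 7.08 with vehicle. The most negative were Mrps26 (-0.27, SE 0.46), Mrpl1 (-0.27, SE 0.25), Mrps21 (-0.27, SE 0.29), Mrpl17 (-0.22, SE 0.20) and Mrpl34 (-0.19, SE 0.19). Leaving out 1 array turned the sign of Mrps26 (0.04 without WT rosiglitazone replicate 1) and of Mrps21 (0.12 without KO vehicle replicate 2).

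KO against WT with vehicle compares the genotypes without the agonist. No member passed the test (0 of 74, and 0.0% of all probe sets). At an unadjusted p under 0.05 there were 3, Mrpl22, Mrps34 and Mrpl1 (4.05%, against 5.69% of all probe sets), and without Mrpl22 there were 2 of 73. The difference was above 0 for 17 of 74 members with the deposited values (23.0%, against 55.6% of all probe sets and 41.6% of the brighter ones), median -0.08, but for 44 of 74 (59.5%, against 76.2% and 67.9%), median 0.05, when each array was centred on its median. The median of all probe sets was 0.16 with centring and 0.03 without, so the direction of the family depends on the scaling. Centring adds 1 constant to every probe set of a comparison and so leaves its place relative to the others as it was, and 59 of 74 members lay below the median of all probe sets. Relative to that median the family stood at -0.11, and relative to the median of the brighter probe sets at -0.04. The Mrps genes had a median of -0.11 (23 of 28 below 0) and the Mrpl genes -0.07 (34 of 46 below 0) with the deposited values.

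The most negative after Mrpl22 were Mrpl11, Mrps34, Mrpl47 and Mrpl28, all below 0 with centring too. Mrpl11 read 6.82 and 6.43 in KO organoids with vehicle, against 7.11 and 7.04 in WT organoids with vehicle (-0.45, SE 0.21, adjusted p = 0.86). Mrps34, a small subunit protein added in mitochondria, read 6.27 and 5.99 in KO organoids, against 6.56 and 6.58 in WT organoids (-0.44, SE 0.20, adjusted p = 0.86). Mrpl28 read 7.11 and 7.08 in KO organoids, against 7.48 and 7.46 in WT organoids (-0.37, SE 0.20). None of these pairs of groups overlaps.

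The largest positive genotype difference with vehicle was that of Mrpl1, 7.10 and 7.23 in KO organoids against 6.83 and 6.57 in WT organoids (0.46, SE 0.19, adjusted p = 0.86), again without overlap. Mrps36 (0.23), Mrpl44 (0.23), Mrps25 (0.12) and Mrpl54 (0.12) were next, and each had a negative difference once 1 of the KO vehicle arrays was left out. Mrps36 carries a ribosomal symbol, but its protein is known as a component of the oxoglutarate dehydrogenase complex. In all, 21 members were lower without overlap (28.4%, against 16.1% of all probe sets and 23.2% of the brighter ones) and 1, Mrpl1, was higher (1.35%, against 23.0% and 13.5%). With centred arrays these counts were 11 lower (14.9%, against 6.64% of all probe sets and 9.21% of the brighter ones) and 11 higher (14.9%, against 40.7% and 31.8%). With the deposited values and without Mrpl22, 20 of 73 were lower (27.4%). The part of the colonocyte markers, whose array means did not overlap here either, in the family's difference was not tested.

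KO against WT with rosiglitazone called no member (0 of 74) where 5 probe sets of the array passed (0.0216%). Mrpl35 was the 1 member at an unadjusted p under 0.05 (4.81% of all probe sets were). The difference was above 0 for 44 of 74 members (59.5%, against 50.5% of all probe sets and 45.4% of the brighter ones) and below 0 for 30 (49.5% of all probe sets), with a median of 0.04. It was above 0 for 57 with centred arrays (77.0%, against 71.1% of all probe sets and 67.9% of the brighter ones). Without the KO array of mouse 45 it was above 0 for 36 (48.6%, against 51.9% and 43.7%). The median was then -0.01, against 0.01 over all probe sets and -0.03 over the brighter ones. Mrpl35, a large subunit protein of bacterial descent, read 8.23, 8.17 and 8.17 in KO organoids, against 7.74, 7.91 and 8.05 in WT organoids (0.29, SE 0.12, adjusted p = 1.00). These groups do not overlap. Mrpl23 (0.35), Mrps12 (0.33), Mrpl47 (0.26) and Mrps36 (0.26) were the other largest, and the value of Mrpl23 was -0.01 without WT rosiglitazone replicate 1.

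The most negative with rosiglitazone was Mrps26, a small subunit protein added in mitochondria, which read 5.33, 5.68 and 4.83 in KO organoids, against 6.49, 5.50 and 5.61 in WT organoids (-0.58, SE 0.29, adjusted p = 1.00), and -0.27 without WT rosiglitazone replicate 1. Mrps21 read 9.56, 9.91 and 9.76 in KO organoids against 10.07, 10.09 and 10.06 in WT organoids (-0.33, SE 0.18), without overlap. Mrps31 (-0.24), Mrps34 (-0.24) and Mrpl55 (-0.22) followed. Groups did not overlap for 4 members in the higher direction, Mrpl35, Mrps36, Mrpl33 and Mrpl46 (5.41%, against 4.22% of all probe sets and 3.84% of the brighter ones), and for Mrps21 in the lower (1.35%, against 4.47% and 5.47%).

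Members varied partly together across the 10 arrays. Against the mean of the other members the median r was 0.38, and it was positive for 67 of 74. Mrpl4 (r = 0.75), Mrps24 (0.74), Mrpl20 (0.74), Mrpl11 (0.74) and Mrpl49 (0.73) were most like the rest, and Mrpl34 (-0.53), Mrpl17 (-0.50), Mrpl32 (-0.40), Mrpl54 (-0.20) and Mrpl19 (-0.05) least. All members share the scaling of each array, which adds to such correlations. Mrpl20 shows the common pattern, with 6.55 in the array of mouse 45 and 5.70 to 6.28 elsewhere. Mrpl34 shows the opposite, with its lowest value, 9.86, in that array.

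The members were also grouped by origin. Large subunit proteins of bacterial descent (28 of 29 measured) had a median KO response of 0.11 and a WT response of -0.06, and those added in mitochondria (20 of 22, with Mrps18a and Mrps30, which sit in the large subunit) 0.07 and -0.06. Small subunit proteins of bacterial descent (14 of 15) had 0.06 and -0.06, and those added in mitochondria (11 of 11) 0.02 and -0.02. In the genotype difference with vehicle the medians were -0.08, -0.06, -0.12 and -0.16 in the same order. No class had a member called by limma (0 in each, in all 5 comparisons), where the whole array had at most 5 calls in a comparison (0.0216%). At an unadjusted p under 0.05 the KO response held 2 of 28 (Mrpl22 and Mrpl12), 0 of 20, 1 of 14 and 0 of 11 members of these classes, where 3.06% of all probe sets were. Of these, Mrpl22 was picked for this response. The differences between the classes were not tested.

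Other genes of the pathway gave the same absence of calls: no gene of these lists passed limma in any of the 5 comparisons, in either direction. On the whole array 5 probe sets passed in KO against WT with rosiglitazone (0.0216%) and 0 in each other comparison. The absence of calls is thus not particular to these lists. Factors that assemble the mitochondrial ribosome (23 of 28 measured) had a median KO response of 0.14 with 21 above 0, and a median genotype difference with vehicle of -0.14 with 19 below 0. The largest KO response among them was that of Ngrn (0.45, SE 0.15). Factors for initiation, elongation and release (13 of 14) had medians of 0.05 and -0.02, with the elongation factor Gfm1 highest in the KO response at 0.38 (SE 0.15). Mitochondrial aminoacyl-tRNA synthetases (19 of 20) had 0.09 and -0.15, and genes that copy, transcribe or process mitochondrial DNA and RNA (12 of 13) had 0.13 and -0.12. Dap3, Ptcd3 and Chchd1, which are mitochondrial ribosomal proteins without such a symbol (3 of 5), had medians of 0.12 and -0.12. At an unadjusted p under 0.05 the KO response held 2 of 23 assembly factors and 1 of 13 translation factors, and 0 genes of the other 3 lists, where 3.06% of all probe sets were.

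A pair of larger sets served for comparison, the nuclear oxidative phosphorylation genes and the proteins of the cytosolic ribosome. In the KO response, 51 of 77 oxidative phosphorylation genes (median 0.05) and 48 of 72 cytosolic ribosomal protein genes (median 0.04) were above 0, next to 56 of 74 in the family (median 0.08). In the WT response 27 of 77 (median -0.05) and 15 of 72 (median -0.06) were above 0, next to 26 of 74 (median -0.05). With vehicle, 12 of 77 (median -0.11) and 21 of 72 (median -0.06) were above 0 in KO against WT, next to 17 of 74 (median -0.08). No probe set is listed for genes of the mitochondrial chromosome, so the products of mitochondrial translation were not analysed here.

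Promoter windows were available for 65 of the 74 members in the RefSeq promoter table (GRCm38.p6), from 250 bases before to 50 after the annotated start, and both strands were searched. The NRF1 core GCGCATGC was found in 8 of 65 windows (12.3%, against 6.23% of 7710 genes with a brighter probe set and 2.80% of all 27025 genes of the table). The ETS motif CCGGAAG was in 23 (35.4%, against 20.3% and 9.12%) and the YY1 motif ATGGCGG in 12 (18.5%, against 9.20% and 4.19%). The E-box CACGTG was in 5 (7.69%, against 10.9% and 7.24%). The half-site of nuclear receptors AGGTCA was in 9 (13.8%, against 11.97% and 16.04%), and the paired site that PPARγ binds with its partner, 2 copies of this half-site in a row with 1 base between them, was in none (0 of 65, with 12 windows in the whole table). Among similar sets, the NRF1 core was in 15.4% of the windows of nuclear oxidative phosphorylation genes and 1.72% of those of cytosolic ribosomal proteins, the ETS motif in 24.6% and 41.4%, and the YY1 motif in 13.8% and 15.5%. The family thus lay between these sets for the NRF1 core and the ETS motif. The window of Mrpl22 is among the 9 with the half-site. The count of the half-site would hold any paired site too. Only exact copies of the paired site were counted, and they were in 0.04% of all windows. With so rare a match, 0 of 65 cannot tell the family from other genes. These matches are descriptions of letters, not of binding.

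**Figure D5:**
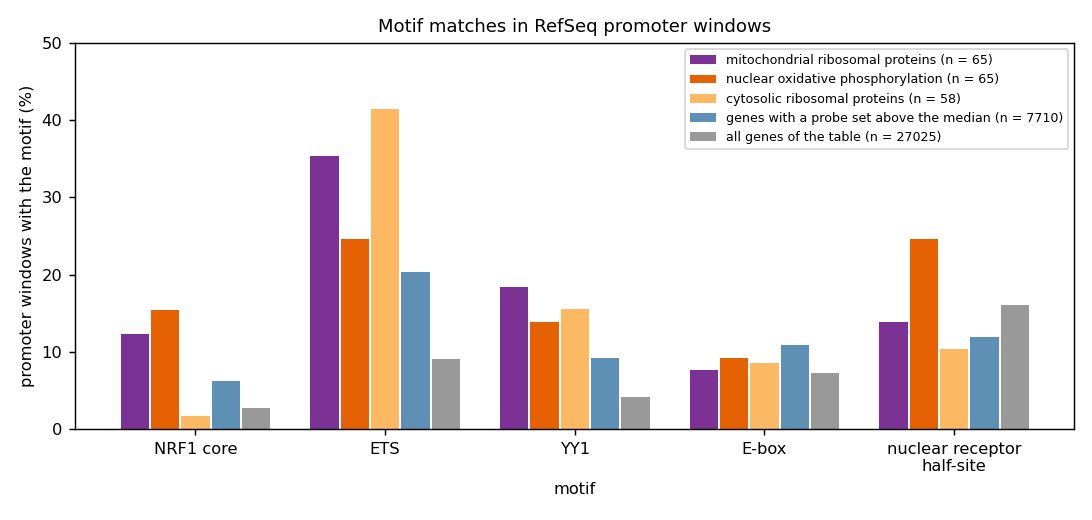
Bars give the percentage of RefSeq promoter windows with at least 1 match to each motif, for the mitochondrial ribosomal proteins (n = 65), nuclear oxidative phosphorylation genes (n = 65), cytosolic ribosomal proteins (n = 58), genes with a brighter probe set (n = 7710) and all genes of the table (n = 27025). The family has the NRF1 core in 12.3% and the ETS motif in 35.4% of windows, against 15.4% and 24.6% of oxidative phosphorylation genes, 1.72% and 41.4% of cytosolic ribosomal proteins and 2.80% and 9.12% of all genes.

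The NRF1 core was in 7 of 40 Mrpl windows and 1 of 25 Mrps windows, and the ETS motif in 12 of 40 and 11 of 25. The sequences below show how the motifs are placed in the 120 bases before the start (NRF1 core and ETS motif in capitals, both strands). Mrpl9 (chr3:94443216-94443335, plus strand) holds 1 stretch that reads as the NRF1 core on both strands, overlapping, Mrpl32 (chr13:14613038-14613157, minus strand) holds such a stretch and 2 further copies, and Mrps26 (chr2:130563637-130563756, plus strand), the most variable Mrps gene, holds an ETS motif read on the opposite strand. Mrpl12 (chr11:120484517-120484636, plus strand) and Mrpl1 (chr5:96209995-96210114, plus strand), which lay at opposite ends of the KO response apart from Mrpl22 and Mrpl47, hold neither.
Mrpl9: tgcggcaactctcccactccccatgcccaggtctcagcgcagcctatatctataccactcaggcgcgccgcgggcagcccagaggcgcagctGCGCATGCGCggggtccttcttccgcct
Mrpl32: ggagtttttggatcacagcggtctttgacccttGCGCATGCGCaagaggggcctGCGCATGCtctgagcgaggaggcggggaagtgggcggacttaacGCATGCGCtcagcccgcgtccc
Mrps26: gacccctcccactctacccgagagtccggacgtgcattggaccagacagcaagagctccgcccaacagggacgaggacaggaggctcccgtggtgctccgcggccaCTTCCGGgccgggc
Mrpl12: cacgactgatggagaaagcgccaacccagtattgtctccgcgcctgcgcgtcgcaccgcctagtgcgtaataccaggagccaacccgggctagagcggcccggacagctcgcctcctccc
Mrpl1: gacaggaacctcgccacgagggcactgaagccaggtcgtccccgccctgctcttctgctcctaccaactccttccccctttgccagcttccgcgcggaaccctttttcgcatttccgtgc

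The 8 members with the NRF1 core had a median KO response of 0.02 and a median genotype difference with vehicle of 0.01, and the 57 without it 0.07 and -0.09. The 23 members with the ETS motif had 0.04 and -0.07, and the 42 without it 0.07 and -0.09. Of the 4 members that hold both, Mrpl22 had a KO response of 1.16, Mrpl33 of 0.01, Mrps18b of -0.05 and Mrpl17 of -0.13.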

How the data were processed

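RNA of colonic organoids was measured on whole-transcript Affymetrix arrays (100 ng total RNA, RNA integrity number above 8, per the labels' protocols). The authors deposited values made by RMA, per the submitters' processing notes, and these were taken here as log2. RMA background-corrects, quantile-normalizes and summarises probes to probe sets and so compresses differences of dim ones. The build and annotation release behind the values are not given in the sources used here. Of 35556 probe sets, the 23099 that the platform annotation lists were tested. Differences were fitted with limma 3.58.1 in R 4.3.3 (lmFit on the means of 4 groups over all 10 arrays, 5 contrasts, eBayes, two-sided, Benjamini-Hochberg over 23099, threshold 0.05), with 6 residual and 4.39 prior degrees of freedom. The number of arrays limits the precision. Brighter probe sets are the 11549 with a mean above the median. Replicates are mice. Mice 44, 46, 42 and 47 gave both treatments, and their paired arrays deviated together (r = 0.49 in KO and 0.44 in WT mice), so the mouse as a block was an alternative, beside each array left out, other scalings, probe set choices and fits. Counts of groups that do not overlap were also made without each array and with centred arrays, alternatives chosen after seeing the data. The fit was tested on simulated data.

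The members and lists were chosen with earlier results of these data known. Named with values were Mrpl22, the 5 members with the largest positive and negative difference in each comparison, the 5 brightest, dimmest and most variable, the 5 most and least like the rest, and up to 5 whose groups do not overlap. All other members are given as counts. Mrpl28, Mrpl33, Mrpl46, Mrps24 and Mrps18b, where values are given outside this rule, were named after their values were seen. Promoter motifs were searched with Python 3.11.15 in the RefSeq promoter table.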

Additional observations from a re-analysis of the deposited data

Results flagged for a closer look

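Between KO and WT organoids 4 members had opposite signs in the mice with both treatments: both KO mice one way and both WT mice the other. Rosiglitazone minus vehicle in mice 46, 44, 42 and 47 was 0.24, 0.32, -0.07 and -0.15 for Mrps16 (KO response minus WT response 0.55). For Mrpl35 it was 0.06, 0.27, -0.11 and -0.10 (0.34). For Mrpl23 it was 0.05, 0.26, a value of 0 to 3 decimals and -0.19 (0.67), and Mrpl23 rests on WT rosiglitazone replicate 1, since without that array the difference of responses was 0.31. Mrps31 ran the other way with -0.21, -0.24, 0.07 and 0.19 (-0.16). The sign pattern is not itself a test, and limma's test of the difference of responses gave an adjusted p of 1.00 for each of the 4. Among all probe sets 5.81% had the KO-up pattern, against 4.05% of members, and 6.01% the KO-down pattern, against 1.35% of members.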

How the results depend on the processing

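No family member was called in any of the 5 comparisons under any alternative run. Counts of probe sets called on the whole array were small and moved. With the mouse as a random replicate block the KO response had 1 call (0 without), KO against WT with vehicle had 1 (0 without), and the block changed no call of a member. KO against WT with vehicle had 6 calls with only the 4 mice that had both treatments, 2 with centred arrays, 1 with quantile normalization repeated, 1 with brighter probe sets only, 2 with a mean-variance trend and 4 with only the compared groups, and 0 to 6 with an array left out (6 without WT rosiglitazone replicate 1). KO against WT with rosiglitazone, with 5 calls, had 16 with only those 4 mice, 1 with quantile normalization repeated, 1 over all probe sets of the table, 8 with a trend and 1 with only the compared groups, and 1 to 23 with an array left out (1 without KO rosiglitazone replicate 1, 23 without WT rosiglitazone replicate 1). The median family difference of KO against WT was 0.046 with vehicle (-0.08 with the deposited values) and 0.12 with rosiglitazone (0.04) when arrays were centred. With only the 4 mice it was -0.045 with rosiglitazone, and the median difference of responses was 0.042 (0.13 with all arrays), as it was with the mouse as a fixed replicate block. With an array left out the family medians were 0.03 to 0.13 (KO response), -0.09 to -0.01 (WT response), 0.07 to 0.18 (difference of responses), -0.13 to -0.05 (KO against WT with vehicle) and -0.01 to 0.07 (with rosiglitazone). Mrpl22 kept its sign in the KO response (0.97 to 1.34), with an adjusted p of 0.41 to 1.00 over the alternatives. Of 865 further values of 47 named differences, 843 stayed within the spread between arrays and 22 did not. Fewer arrays are separated more easily. With an array left out, counts of members whose groups do not overlap thus grew or stayed as they were, while the background grew. Percentages here are the highest over the arrays left out, for members against all and brighter probe sets. In the KO response 9 to 30 members were higher (40.5%, against 23.1% and 26.1%) and 1 to 11 lower (14.9%, against 27.4% and 22.7%). In the WT response 4 to 18 were higher (24.3%, against 23.5% and 18.1%) and 8 to 22 lower (29.7%, against 19.1% and 22.5%). KO against WT with vehicle gave 3 to 19 higher (25.7%, against 43.5% and 33.4%) and 27 to 42 lower (56.8%, against 35.3% and 46.2%). KO against WT with rosiglitazone gave 4 to 13 higher (17.6%, against 12.2% and 10.2%) and 1 to 10 lower (13.5%, against 11.1% and 15.2%). The number of arrays, 2 or 3 a group, limits the precision.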
